A study of Mus musculus with 6 samples.

Results

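Alternative splicing of messenger RNA is steered by families of RNA-binding proteins and by the kinases that phosphorylate them, and 51 protein-coding genes of these families are described here in mouse Th17 cultures with and without Prmt5. The rule takes them by gene symbol from the 54525 genes of the deposited table and uses no measured value, but the families themselves were picked with earlier results of these data known. The set holds 13 genes for SR and TRA2 proteins, 20 hnRNP genes, 9 genes for subunits of SF3A and SF3B, 3 genes for U2AF and a related protein, and 6 kinase genes. All 51 were found in the table, and 50 had enough counts to be tested.

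The data are RNA sequencing counts of total RNA from 6 cultures of naive CD4 T cells of C57BL/6 mice. The cells came from spleen and lymph nodes and were kept for 72 hours on anti-CD3 and anti-CD28 with TGFβ and IL-6, a Th17-inducing mix. Of the cultures, 3 (WT) had the genotype iCD4-PRMT5fl/fl, so the controls carry the floxed allele too, and 3 (KO) had iCD4-PRMT5delta/delta. The agent that deletes the allele, and the age and sex of the mice, are not given in the sources used here. Levels are in CPM, counts scaled to a common library total, after TMM scaling, and differences are log2 changes of KO over WT with a standard error (SE) from the edgeR quasi-likelihood test. A gene is called at an edgeR adjusted p under 0.05 over 16006 tested genes.

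SR proteins bind exons through RNA recognition motifs and recruit the spliceosome through domains rich in arginine and serine. SRPK kinases phosphorylate these domains in the cytoplasm and promote import into the nucleus, and CLK kinases phosphorylate them further inside the nucleus. The hnRNPs coat nascent transcripts and often keep exons out, while U2AF recognises the end of the intron and SF3A and SF3B anchor the U2 snRNP at the branch point. PRMT5 methylates arginines of spliceosomal Sm proteins. Many genes of these families limit their own mRNA by poison exons or by detained introns, which hold a transcript in the nucleus. The deposited counts are sums per gene and do not separate such forms from productive mRNA.

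The exon of Clk1 known for this control is shown first, because all 4 Clk genes were called, 3 of them higher and 1 lower. Over all tested genes 21.7% were called higher and 20.9% lower. In the coding transcripts of 13 exons, exon 4 is the counterpart in each gene. The GENCODE M21 annotation on GRCm38 holds transcripts that skip it and transcripts with a longer exon that extends past both its ends. How far such longer exons cover the introns beside it was not checked. The Clk1 exon lies at chr1:58420121-58420211 on the minus strand, and 3 annotated transcripts skip it and 2 span it with such a longer exon. The Clk4 exon lies at chr11:51273078-51273168 on the plus strand, with 3 transcripts that skip it and 1 that spans it in this way. The Clk2 exon lies at chr3:89169618-89169702 on the plus strand and the Clk3 exon at chr9:57758627-57758723 on the minus strand, and each is skipped in 1 annotated transcript. The Clk1 and Clk4 exons are both 91 bases long, and capitals mark the 6 positions at which they differ.
Clk1 exon 4: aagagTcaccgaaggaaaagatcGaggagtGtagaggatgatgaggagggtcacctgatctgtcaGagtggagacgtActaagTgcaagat
Clk4 exon 4: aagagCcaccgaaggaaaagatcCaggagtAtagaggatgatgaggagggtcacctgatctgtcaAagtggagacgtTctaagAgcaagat
Clk2 exon 4: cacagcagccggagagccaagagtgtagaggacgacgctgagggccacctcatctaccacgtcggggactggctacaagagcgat
Clk3 exon 4: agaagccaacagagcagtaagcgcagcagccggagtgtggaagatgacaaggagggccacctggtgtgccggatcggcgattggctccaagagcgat
The Clk1 and Clk4 exons were identical at 93.4% of positions, while those of Clk2 and Clk3 have other lengths of 85 and 97 bases. Reads of either form of each gene enter the same count.

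Some facts of the whole series bear on these values. Libraries held 36011906 to 43141474 counts. Prmt5, the deleted gene, was at 109, 137 and 118 CPM in the WT libraries and fell to 52.4, 43.8 and 52.9 CPM (log2 -1.29 ± 0.11 SE, edgeR adjusted p = 0.00012), and a two-sided exact permutation test gave p = 0.1, the smallest that 3 against 3 libraries allow. WT replicate 2 stood apart from the other WT libraries for many of the genes described here. The 4 Y-linked genes checked had 0 counts in every WT library and were counted in every KO library, least in KO replicate 2. Sex and genotype therefore cannot be told apart in these libraries. Of 8 T cell markers 1 rose and 2 fell, and they summed to 2079 to 2214 CPM in WT and 1872 to 1921 CPM in KO. Of 6 Th17 markers 2 rose and 3 fell, with sums of 389 to 551 CPM and 172 to 222 CPM. Of 6 B cell markers 5 rose, and their sum lay between 4.18 and 21.2 CPM in WT and between 39.1 and 106 CPM in KO. Of 7 myeloid markers 5 could be tested and all 5 rose, with a sum between 0.295 and 1.36 CPM in WT and between 7.98 and 29.0 CPM in KO. Of 7 granulocyte and mast cell markers all 3 that could be tested rose, with sums of 0.028 to 0.294 CPM and 7.90 to 40.4 CPM. Of 4 gamma delta T cell markers 3 rose (10.8 to 13.5 CPM against 39.2 to 72.2 CPM), and so did both CD8 markers (5.58 to 7.88 CPM against 14.7 to 17.2 CPM). Of 5 NK and innate lymphoid markers 1 rose and 2 fell (61.8 to 81.0 CPM against 42.2 to 63.9 CPM). Of 5 stromal markers only 2 could be tested, Pdgfrb and Pecam1, and both rose (128 to 144 CPM against 190 to 230 CPM). These 2 genes make up nearly all of that sum. None of 4 erythroid markers could be tested. Fcgr1, Elane, Hba-a1, Hbb-bs, Alas2, Col1a1, Col1a2 and Col3a1 were under 0.05 CPM. In these bulk cultures fewer cells of a type and less RNA per cell cannot be told apart, and the part of other cells in the results below was not tested.

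Of the 50 tested genes, 8 rose and 13 fell in KO. The 21 called genes are 42% of the tested genes of these families, next to 42.5% of all tested genes, so the number of calls did not set the families apart. Calls made up 21.7% of all tested genes in the upward and 20.9% in the downward direction. The 3 KO libraries lay beyond the 3 WT libraries for 26 of the 50 genes (52%), against 55.6% of all tested genes. The median log2 change was -0.13 over the 50 genes and -0.00 over all tested genes. The size of the change was modest, with a median absolute log2 change of 0.24 against 0.34 over all tested genes. One gene, Srsf12, changed by a log2 of at least 1, a size that 14.6% of all tested genes passed with a call. The genes of these families were abundant, with a median level of 225 CPM against 12.3 CPM, and their median SE was 0.08 against 0.14.

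**Figure D1:**
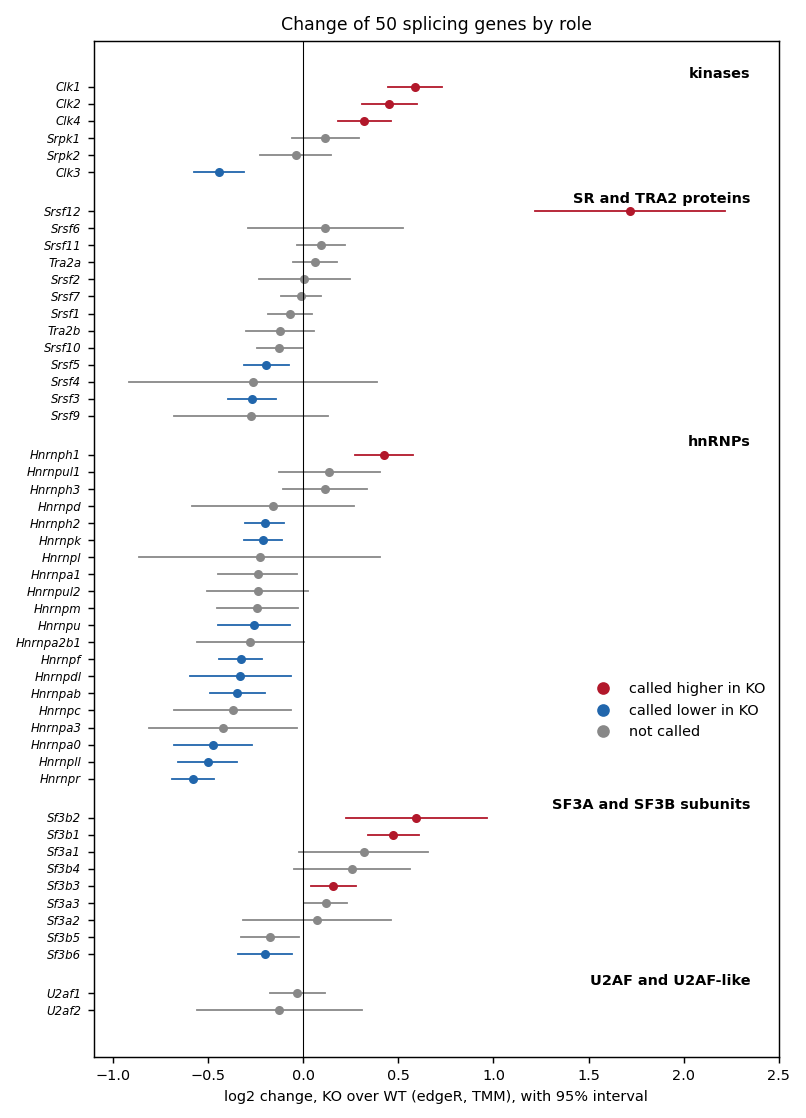
Log2 change of KO over WT for the 50 tested genes, grouped by role, with 95% intervals from the edgeR fit; red and blue points are called higher and lower at an adjusted p under 0.05 and grey points are not called. Most hnRNP genes sit left of 0, Clk1, Clk2, Clk4 and the SF3B genes Sf3b1, Sf3b2 and Sf3b3 sit to the right, and Srsf12 is the single gene beyond a log2 of 1.

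The downward calls depended on how the libraries were scaled. Scaling by the spike-in RNA, added in known amount, moved the median log2 change of all tested genes from -0.00 to 0.14. With it, 6 of the 50 genes were called higher and 0 lower, against 19.3% and 8.52% of all tested genes. With upper-quartile scaling the split was 9 higher and 9 lower, against 3839 higher and 2895 lower of all 16006 tested genes. All 13 genes that fell under TMM kept a negative log2 change with spike-in scaling. The 6 genes called higher with it were Clk1, Clk2, Srsf12, Hnrnph1, Sf3b1 and Sf3b2. Spike-in RNA made up 0.163 to 0.216% of the counts in WT and 0.161 to 0.201% in KO, so its share varied within each group. The log2 changes of Clk3 and of the hnRNP genes with the larger falls are given below under both scalings.

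The kinases of SR proteins split, with Clk1, Clk2 and Clk4 higher and Clk3 lower in KO. Calls made up 66.7% of the 6 kinase genes, against 42.5% of all tested genes. Clk1 (ENSMUSG00000026034.17, GRCm38 chromosome 1, 58410189 to 58424066, minus strand) encodes a nuclear kinase that acts on SR proteins and on the splicing of its own transcript. Its level was 342, 327 and 327 CPM in WT replicates 1 to 3 and 482, 539 and 477 CPM in the KO replicates. All KO libraries were above all WT libraries, and the mean rose from 332 ± 8.37 to 499 ± 34.6 CPM (SD, n = 3), a log2 change of 0.59 ± 0.06 SE (edgeR adjusted p = 0.00029). Clk4 (chromosome 11, 51261730 to 51281766, plus strand) encodes another nuclear kinase of the family. It stood at 115, 117 and 112 CPM in WT and at 140, 153 and 136 CPM in KO. Its groups did not overlap either, and its log2 change of 0.32 ± 0.06 (edgeR adjusted p = 0.00402) was called under TMM but not with spike-in scaling, where it was 0.46.

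Clk2 (chromosome 3, 89164795 to 89176921, plus strand), a kinase that also acts downstream of insulin and AKT, rose from 53.6, 55.1 and 50.3 CPM to 72.3, 70.4 and 74.9 CPM. This is a log2 change of 0.45 ± 0.06 (edgeR adjusted p = 0.001). Clk3 (chromosome 9, 57750624 to 57765860, minus strand), the remaining kinase of the family, went the other way. It stood at 187, 186 and 169 CPM in WT and at 135, 131 and 133 CPM in KO, again without overlap (log2 -0.44 ± 0.06, edgeR adjusted p = 0.000769). With spike-in scaling its change was -0.30 and was not called. The annotation places 15.2% of the exon bases of Clk3 on the opposite strand of exons of Edc3, which was not called (log2 -0.08). Whether the authors counted by strand is not stated.

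Neither SRPK gene was called. Srpk1, the kinase that loads SR proteins with phosphate in the cytoplasm, stood at 279, 233 and 274 CPM in WT and at 291, 283 and 278 CPM in KO. KO replicate 3 lay just below WT replicate 1, and the 95% interval of the log2 change ran from -0.06 to 0.29. Srpk2, its paralog, was measured at 33.7, 34.2 and 32.4 CPM in WT and at 32.7, 29.8 and 35.1 CPM in KO. These values overlap fully, and the interval ran from -0.23 to 0.15. In 5 of the 6 kinase genes the longest annotated transcript is a retained intron form, Srpk2 being the exception, so reads from those introns can enter the counts.

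**Figure D2:**
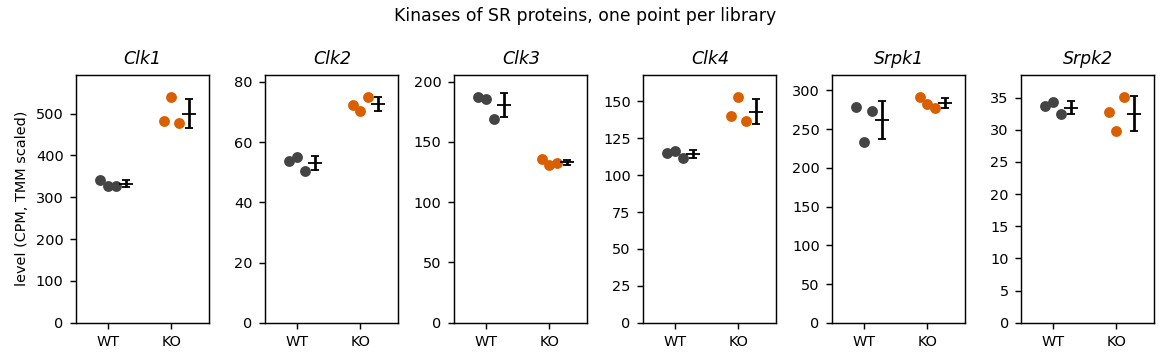
Level of the 6 kinase genes in each library in CPM after TMM scaling, with WT in dark grey and KO in orange; the bar beside each group is the mean with its SD over 3 libraries, and each axis starts at 0. Clk1, Clk2 and Clk4 are above WT in every KO library and Clk3 is below it, while the Srpk1 and Srpk2 points overlap between the groups.

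Of the 13 genes of the SR and TRA2 class, 10 were not called, 1 rose and 2 fell (23.1% called, against 42.5% of all tested genes). Srsf1, the founding SR protein, stood at 1026, 1055 and 1046 CPM in WT and at 1011, 1032 and 941 CPM in KO. The groups overlap, and the 95% interval of its log2 change ran from -0.18 to 0.05. Srsf2, whose product binds exon enhancers, was at 473, 376 and 504 CPM in WT and at 462, 437 and 461 CPM in KO, with an interval from -0.23 to 0.25. The annotation overlays 25.3% of its exon bases with Mettl23 and Mfsd11 on the opposite strand. Srsf7, an SR protein with a zinc knuckle, had a log2 change of -0.01 with an interval from -0.12 to 0.09.

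Srsf3 and Srsf5 fell. Srsf3, the smallest SR protein and a regulator of its own poison exon, stood at 713, 744 and 691 CPM in WT and at 613, 605 and 565 CPM in KO. The groups did not overlap (log2 -0.27 ± 0.05, edgeR adjusted p = 0.00549). Srsf5 was at 669, 674 and 683 CPM in WT and at 588, 622 and 562 CPM in KO (log2 -0.19 ± 0.05, edgeR adjusted p = 0.0195). Both calls ended with spike-in scaling, when KO replicate 2 stood alone for its group, and with a Y-linked covariate in the fit. That of Srsf5 also ended with upper-quartile scaling and when WT replicate 3, KO replicate 1 or KO replicate 3 was left out.

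Srsf12 rose most of the set, from the lowest WT level of the 50 tested genes of the set. This SR-related gene (ENSMUSG00000054679.8, chromosome 4, 33208991 to 33233340, plus strand) was at 1.13, 0.688 and 1.08 CPM in WT, from 40, 28 and 44 counts. In KO it was at 3.22, 2.89 and 3.40 CPM, from 134, 109 and 147 counts. The 3 KO libraries were all above WT, with a log2 change of 1.72 ± 0.21 (95% interval 1.22 to 2.22, edgeR adjusted p = 0.000665). KO replicate 3 was the highest KO library for Srsf12 and for the sums of the T cell, Th17, B cell, myeloid, and granulocyte and mast cell markers. It was the lowest for those of the gamma delta T cell, NK and stromal markers, and between the others for those of the CD8 and erythroid markers. Which cells carried Srsf12 was not tested.

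The TRA2 genes encode SR-like proteins that bind GAA-rich exon enhancers, and neither was called. Tra2a stood at 182, 190 and 181 CPM in WT and at 198, 192 and 187 CPM in KO, with an interval of the log2 change from -0.05 to 0.18. Tra2b was at 357, 426 and 372 CPM in WT and at 369, 337 and 355 CPM in KO, with an interval from -0.30 to 0.06. Log2 changes of the other uncalled genes of this class were -0.13 for Srsf10, 0.09 for Srsf11, 0.12 for Srsf6, -0.27 for Srsf4 and -0.27 for Srsf9.

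The hnRNP genes, the largest class, had the most falls. Under TMM scaling 9 of 20 were lower, 1 was higher and 10 were not called, and with spike-in scaling 0 were lower. Over all tested genes 20.9% were called lower and 21.7% higher under TMM, and 8.52% lower with spike-in scaling. The median log2 change of the hnRNP genes was -0.25, against -0.00 over all tested genes. Hnrnpr (ENSMUSG00000066037.14, chromosome 4, 136310942 to 136359447, plus strand), whose product binds RNA in the nucleus and in axons, had the largest fall among them. It stood at 210, 205 and 205 CPM in WT and at 142, 139 and 134 CPM in KO. The spread within each group was a few CPM, and the log2 change was -0.58 ± 0.05 (edgeR adjusted p = 0.000112).

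Hnrnpll (chromosome 17, 80029487 to 80062334, minus strand) encodes the hnRNP L paralog that drives the exon skipping of CD45 in activated T cells. It was at 188, 198 and 190 CPM in WT and at 140, 123 and 142 CPM in KO, without overlap (log2 -0.50 ± 0.07, edgeR adjusted p = 0.000907). Hnrnpa0, an AU-rich element binding protein of the A/B group, fell from 278, 287 and 313 CPM to 223, 185 and 223 CPM (log2 -0.47 ± 0.09, edgeR adjusted p = 0.00392). Hnrnpab, of the same group, fell from 1035, 1111 and 1022 CPM to 885, 778 and 829 CPM (log2 -0.35 ± 0.06, edgeR adjusted p = 0.00356). For Hnrnpab, 29.1% of exon bases lie opposite exons of Phykpl, which also fell (log2 -0.78) but stood at 9.46 to 17.5 CPM. The calls of these 4 genes and of Hnrnpf (log2 -0.33) ended with spike-in scaling and with none of the other 15 alternatives. With that scaling the log2 changes were -0.44 for Hnrnpr, -0.36 for Hnrnpll, -0.34 for Hnrnpa0, -0.20 for Hnrnpab and -0.19 for Hnrnpf.

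Hnrnpk, the most abundant hnRNP gene by counts and one that binds C-rich sequence, moved little but evenly. It stood at 1449, 1514 and 1470 CPM in WT and at 1295, 1275 and 1258 CPM in KO (log2 -0.21 ± 0.04, edgeR adjusted p = 0.00555). Hnrnph2, on chromosome X, had a log2 change of -0.20 ± 0.04. Both calls ended under the same 3 alternatives as that of Srsf3. Hnrnpdl fell narrowly, from 404, 296 and 386 CPM to 301, 292 and 272 CPM. WT replicate 2 overlapped KO, and the call, at an edgeR adjusted p of 0.0499, ended in 13 of 16 alternatives. Hnrnpu, which tethers RNA to chromatin, fell with log2 -0.26 ± 0.08, a call that ended in 8 alternatives.

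Hnrnph1 (ENSMUSG00000007850.16, chromosome 11, 50376990 to 50386528, plus strand) was the only hnRNP gene that rose. Its product binds G-rich sequence and shares this with that of Hnrnph2, which fell. It stood at 518, 599 and 528 CPM in WT and at 760, 718 and 733 CPM in KO, without overlap (log2 0.43 ± 0.07, edgeR adjusted p = 0.00174). The call ended only where KO replicate 2 stood alone for its group. Hnrnph3, another H gene, was not called (log2 0.12, interval -0.11 to 0.34).

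Several hnRNP genes had negative values without a call, some with a wide spread among the KO libraries. Hnrnpa1, a classical splicing repressor, was at 1318, 1261 and 1352 CPM in WT and at 1257, 975 and 1101 CPM in KO. The groups only just part, and the edgeR adjusted p was 0.0657. Hnrnpa2b1 stood at 1140, 1044 and 1067 CPM in WT and at 1054, 733 and 895 CPM in KO (adjusted p = 0.102 by edgeR). KO replicate 2 was the lowest KO library for 14 of the 20 hnRNP genes, against 37.2% of all tested genes. Hnrnpc, which binds uridine tracts, had a log2 change of -0.37 (interval -0.68 to -0.06, edgeR adjusted p = 0.0561) and Hnrnpa3 of -0.42 (interval -0.81 to -0.03). Log2 changes of the remaining uncalled genes were -0.24 for Hnrnpm, -0.24 for Hnrnpul2, -0.23 for Hnrnpl, -0.16 for Hnrnpd and 0.14 for Hnrnpul1. Without KO replicate 1, or with the Y-linked covariate, Hnrnpa1, Hnrnpa2b1, Hnrnpa3 and Hnrnpm were each called lower. Without KO replicate 2 none of them was called, at log2 changes of -0.15, -0.15, -0.27 and -0.16 in that order.

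**Figure D3:**
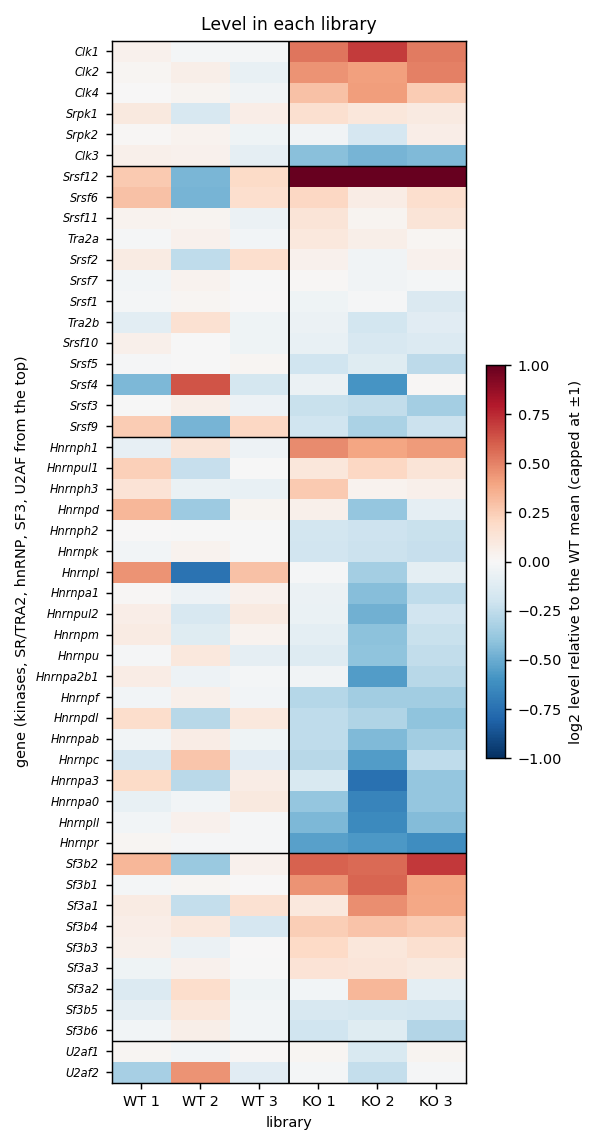
Level of each tested gene in each library, as the difference in log2 level from the mean log2 level of the WT libraries, with colours capped at a difference of 1; genes are in the order of the plot of changes by role, and lines part the roles and the genotypes. Hnrnpl, Srsf4, Srsf6, Srsf9 and U2af2 show a WT replicate 2 unlike WT replicates 1 and 3, and KO replicate 2 is the lowest KO library for 14 of 20 hnRNP genes.

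Subunits of SF3B moved apart. Of the 9 SF3A and SF3B genes 3 rose and 1 fell (44.4% called, against 42.5% of all tested genes). SF3B holds the branch point adenosine against U2, and Sf3b1 (ENSMUSG00000025982.13, chromosome 1, 54985169 to 55027481, minus strand) encodes its large scaffold. Sf3b1 was at 1457, 1493 and 1477 CPM in WT and at 2010, 2206 and 1935 CPM in KO. All KO libraries are above the narrow range of the WT libraries (log2 0.47 ± 0.06, edgeR adjusted p = 0.000556). Sf3b2, which contacts the pre-mRNA near the branch point, rose from 107, 65.4 and 87.2 CPM to 128, 126 and 138 CPM (log2 0.59 ± 0.16, edgeR adjusted p = 0.0194). Sf3b3, a propeller protein that cradles Sf3b1, rose slightly, from 495, 460 and 480 CPM to 549, 517 and 536 CPM (log2 0.16 ± 0.05, edgeR adjusted p = 0.0384). Sf3b6, a small subunit that contacts the branch point adenosine, fell from 164, 174 and 164 CPM to 145, 154 and 137 CPM (log2 -0.20 ± 0.06, edgeR adjusted p = 0.0305).

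The call of Sf3b1 held in all 16 alternatives. That of Sf3b2 ended in 6, among them the fits that left out WT replicate 3 or any single KO replicate, that of Sf3b3 in 8 and that of Sf3b6 in 9. None of the 3 SF3A genes was called, and their log2 changes were 0.32 for Sf3a1, 0.07 for Sf3a2 and 0.12 for Sf3a3. Sf3b4 and Sf3b5 were not called either, at 0.26 and -0.17.

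The promoters of the 3 SF3B genes that rose are shown because these genes were called higher. The sequences are from RefSeq on GRCm38.p6 and span the start of the gene, with most bases upstream of it. Capitals mark each match, on either strand, of CCGGAAG (the core of ETS factor sites), CCAAT and GGGCGG (the GC box). The Sf3b1 window is chr1:55027429-55027728, the Sf3b2 window chr19:5295408-5295707 and the Sf3b3 window chr8:110846754-110847053, all on the minus strand.
Sf3b1 promoter: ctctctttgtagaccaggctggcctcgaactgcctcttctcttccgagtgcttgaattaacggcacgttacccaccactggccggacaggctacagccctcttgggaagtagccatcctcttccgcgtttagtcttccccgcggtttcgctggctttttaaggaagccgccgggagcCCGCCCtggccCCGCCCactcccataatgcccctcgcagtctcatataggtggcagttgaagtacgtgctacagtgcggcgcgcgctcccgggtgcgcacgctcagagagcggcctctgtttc
Sf3b2 promoter: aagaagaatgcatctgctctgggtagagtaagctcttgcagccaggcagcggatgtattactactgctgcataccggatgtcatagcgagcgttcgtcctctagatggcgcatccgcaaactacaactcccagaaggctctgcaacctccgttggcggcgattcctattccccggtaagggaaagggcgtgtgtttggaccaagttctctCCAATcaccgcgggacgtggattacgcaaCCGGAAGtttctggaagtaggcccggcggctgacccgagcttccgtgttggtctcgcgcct
Sf3b3 promoter: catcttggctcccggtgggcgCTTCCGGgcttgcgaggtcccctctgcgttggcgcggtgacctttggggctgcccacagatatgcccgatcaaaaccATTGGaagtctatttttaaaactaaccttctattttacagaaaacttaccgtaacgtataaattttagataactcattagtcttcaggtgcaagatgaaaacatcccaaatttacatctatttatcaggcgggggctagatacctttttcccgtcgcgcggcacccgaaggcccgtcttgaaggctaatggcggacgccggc
The Sf3b2 and Sf3b3 windows each held 1 match of CCGGAAG and 1 of CCAAT, and the Sf3b1 window held 2 of GGGCGG and none of the other motifs. TATAAA, a motif not marked here, was in the Sf3b3 window. CCGGAAG was also in the windows of Sf3b6, which fell, and of Sf3a1, Sf3a2 and Sf3a3, which were not called. Whether a motif goes with a change was not tested. Promoters in the RefSeq table matched 45 of the 51 genes. At least 1 window of the gene held CCGGAAG in 28.9% of these, against 9.93% of all genes in the table, and GGGCGG in 80.0% against 38.2%. For CCAAT the shares were 51.1% and 41.1%. These shares compare with every gene that has a window, expressed or not, and were not matched for level or base content. A match describes letters of the window and does not show a bound site.

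The U2AF genes were not called. U2af1, whose product reads the AG at the end of the intron, stood at 159, 154 and 158 CPM in WT and at 159, 142 and 160 CPM in KO, with an interval of the log2 change from -0.18 to 0.11. U2af2, whose product binds the polypyrimidine tract, was at 198, 341 and 230 CPM in WT and at 246, 212 and 247 CPM in KO. WT replicate 2 was above every other library, and the interval of -0.56 to 0.31 was wide. U2af1l4, the gene left out of the test, had 2 counts in each WT library and 6, 7 and 13 in the KO libraries, and 66.1% of its exon bases are shared with other annotated genes.

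Levels spread over more than 3 orders of magnitude when divided by exon length. On the scale of WT CPM per kilobase of exon (the union of exons in GENCODE M21), Hnrnpa1 was highest at 416, followed by Hnrnpab at 380, Hnrnpk at 229 and Hnrnpf at 203. Srsf1 led the SR genes at 183 and Sf3b1 the spliceosome subunits at 130. Among the kinases Clk1 was highest at 40.8 CPM per kilobase, followed by Clk3 at 21.4, Srpk1 at 21.2 and Clk4 at 19.7. In KO Clk1 reached 61.4 CPM per kilobase and Clk3 stood at 15.8, below Clk4 at 24.7. Genes for SF3A and SF3B subunits differed widely: Sf3a1, Sf3b4 and Sf3a2 stood at 1.64, 1.57 and 1.34 CPM per kilobase, while Sf3a3 stood at 61.2. The cause of this gap was not tested. The last tested gene was Srsf12 at 0.307. With the length the authors deposited, which equals the longest GENCODE M21 transcript for 98.2% of all genes, Hnrnpk ranked 1 and Hnrnpa1 ranked 3, and Sf3a1, Sf3b4, Sf3a2 and Srsf12 kept ranks 47 to 50.

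**Figure D4:**
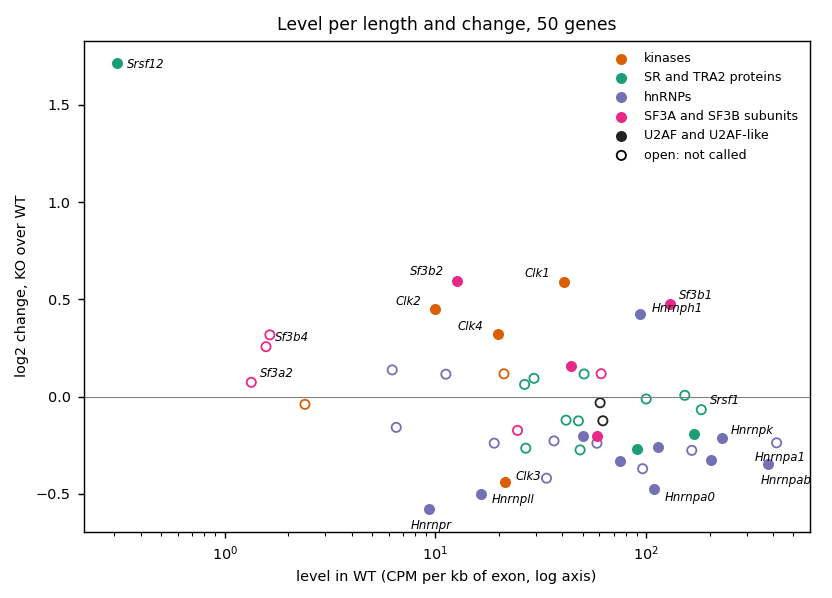
Level in WT in CPM per kilobase of exon on a log axis against the log2 change of KO over WT for the 50 tested genes, coloured by role, with filled points for called genes. The 9 hnRNP genes that fell range in level from Hnrnpr at the left to Hnrnpab at 380 CPM per kilobase, while Srsf12 stands alone at the upper left at 0.307.

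Spread among the WT libraries was uneven, and WT replicate 2 made most of it. A coefficient of variation over 15% was found for 12 of the 50 genes in WT, and in 10 of these WT replicate 2 was the library farthest from the other WT libraries, 7 times as the lowest and 3 times as the highest. In all 50 genes it was the farthest in 64.0%, against 43.8% of all tested genes. Hnrnpl, the paralog of Hnrnpll, was at 279, 123 and 251 CPM in WT and at 203, 162 and 192 CPM in KO. Its WT replicate 2 was the lowest of the 6 libraries, and without it the gene was called lower (log2 -0.52, edgeR adjusted p = 0.00356). Srsf9 stood at 93.3, 56.9 and 90.7 CPM in WT and at 68.3, 63.1 and 67.7 CPM in KO, and it too was called lower without WT replicate 2 (log2 -0.48, edgeR adjusted p = 0.00049). Srsf4 was at 66.4, 140 and 80.3 CPM in WT and at 86.9, 60.3 and 91.2 CPM in KO. The processed transcript Gm12992 lies opposite 43.0% of the exon bases of Srsf4 and had the same order of libraries, at 1.73, 3.76 and 2.21 CPM in WT and 2.47, 1.56 and 2.66 CPM in KO.

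Without WT replicate 2, 7 of the 50 genes were higher and 17 lower, against 3545 and 3488 of all 16469 genes tested in that fit. Hnrnpa1, Hnrnpa3, Hnrnpl, Hnrnpm, Hnrnpul2 and Srsf9 gained a call there, and Hnrnpu, Sf3b3 and Sf3b6 lost theirs.

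**Figure D5:**
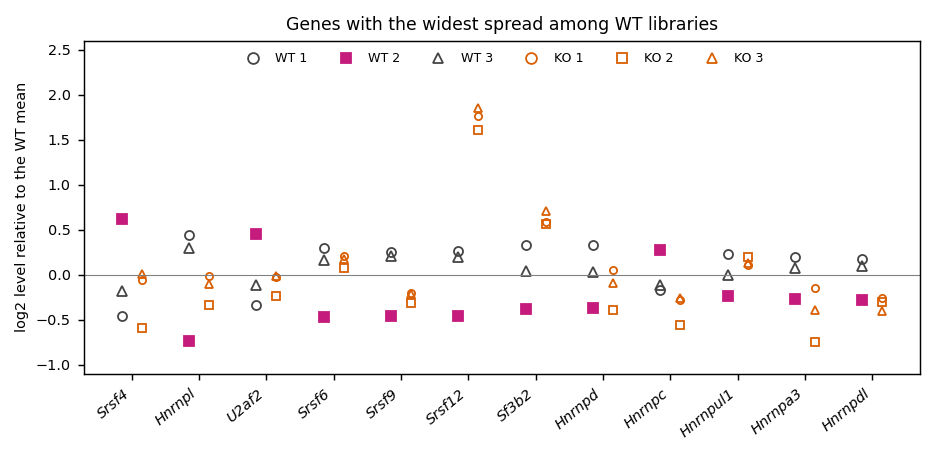
The 12 genes with a coefficient of variation over 15% among the WT libraries, each library plotted as the difference in log2 level from the WT mean, with WT replicate 2 as filled squares, the other WT libraries open in grey and KO libraries open in orange. WT replicate 2 is the lowest WT library for Hnrnpl, Srsf6 and Srsf9 and the highest for Srsf4, U2af2 and Hnrnpc.

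Other genes of the splicing pathway, were taken from lists drawn by function, and their counts are to be read against the 21.7% of all tested genes called higher and the 20.9% called lower. Among 52 tested genes for other splicing regulators, 12 rose and 17 fell (55.8% called, median log2 -0.02). Mbnl1, which promotes adult splicing patterns, rose from 998, 993 and 1028 CPM to 1662, 1698 and 1524 CPM (log2 0.69 ± 0.05, edgeR adjusted p = 8.69e-05). Ddx17, an RNA helicase that works with hnRNP H, fell from 328, 383 and 338 CPM to 169, 165 and 177 CPM (log2 -1.04 ± 0.07, edgeR adjusted p = 5e-05). Also called were Pcbp2 (log2 0.63), Srek1 (0.61), Celf4 (1.58) and Rbfox2 (-1.85). Rbfox2 stood at 2.40 CPM in WT and 0.664 CPM in KO on average, and Celf4 at 0.441 CPM and 1.31 CPM. Of 16 other U2 and branch site factors 2 rose and 1 fell (18.8% called), with Smndc1, which binds methylated Sm tails, at log2 0.72 ± 0.10, Zrsr2 at 0.35 and U2surp at -0.23. Of 34 tri-snRNP, Prp19 complex and step factors 6 rose and 4 fell (29.4% called). Snrnp200, the helicase that unwinds U4 from U6, rose from 489, 461 and 491 CPM to 831, 775 and 811 CPM, while Dhx38, a helicase of the step between the splicing reactions, had log2 -0.72 ± 0.08. Prpf39 rose (log2 0.62) and Prpf31 fell (log2 -0.37). Of 16 tested other kinases and phosphatases of splicing factors 1 rose and 5 fell (37.5% called), with the phosphatase subunit gene Ppp1cc at log2 -0.44 ± 0.04 and the kinase gene Dyrk1b at log2 1.42 ± 0.18. The level of Dyrk1b was low, at 1.04 CPM in WT and 2.76 CPM in KO on average. Ppp1cb and Akt2 fell (log2 -0.42 and -0.37). Of 3 tested genes outside the families known for detained introns or for an exon switch after PRMT5 loss, Mdm4 rose (log2 0.47 ± 0.06), Mat2a fell (log2 -0.39 ± 0.11) and Ogt was not called (log2 -0.14 ± 0.05, edgeR adjusted p = 0.0519).

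The annotation itself holds many non-productive forms of these genes. Of the 51 genes, 42 have at least 1 annotated transcript marked for nonsense-mediated decay or with a retained intron, 31 with the former and 40 with the latter. In 14 of the 50 tested genes (28%) the longest transcript is a retained intron form, against 14.4% of all tested protein-coding genes. Of these 14 genes 3 rose and 5 fell, while 47.9% of all tested protein-coding genes with such a longest transcript were called. The median log2 change of the 14 genes was -0.16, against -0.10 for the other tested genes of the set. Over all tested protein-coding genes it was -0.04 with such a longest transcript and -0.01 without.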

How the data were processed

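Total RNA of 6 cultures, 3 WT and 3 KO, was sequenced with stranded libraries after removal of ribosomal RNA, per the labels' protocols. The raw columns hold whole-number counts per gene deposited by the authors, and only these entered the fits. The authors' normalized columns hold a signal that equalled the raw count divided by one factor per sample. Their deposited log2 fold change, adjusted p-value and group means did not enter the results. The gene length is the deposited other value, in bases. Per the submitters' processing notes STAR, featureCounts, DESeq2 and DESeq were used with GRCm38.p3. Versions, the strand setting and the treatment of reads with several positions are not given in the sources used here, so counts of genes with near-identical copies are uncertain.

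The 92 spike-in RNAs were set aside. filterByExpr in edgeR 4.0.16, with a minimum count of 10 and a minimum total of 15, left 16006 genes, scaled by TMM. The quasi-likelihood test had genotype as the only term, with Benjamini-Hochberg adjustment over all tested genes. The procedure was tested on simulated data. The SE is the absolute coefficient over the square root of F. Alternatives were DESeq2 1.42.0, limma-voom 3.58.1, other scalings and filters, left-out libraries, a replicate block and a Y-linked covariate. The covariate is the summed level of 4 Y-linked genes, which was 0 in WT and 0.96, 0.13 and 1 relative to the highest library in KO replicates 1, 2 and 3, so that fit rests mainly on KO replicate 2.

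Samples were grouped by their titles. The labels do not say that cultures came from separate animals, and the column names join the number 51 to each KO library without explanation. The p-values may therefore cover technical spread only, or be too small if the KO libraries share an animal. Depth limits the precision of low genes, and counts are not independent molecules.

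The members follow from a rule on gene symbols, but that rule and all gene lists were chosen with earlier results of these data known. Values in every library are given for the kinases, 11 other genes fixed by name, and up to 6 called genes per role with the largest absolute log2 change. Further genes, such as those with a wide spread in WT, were chosen after their values were seen. In the other lists, genes with the lowest p or largest change are named. Oga was not matched by symbol.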

Additional observations from a re-analysis of the deposited data

How the results depend on the processing

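Under the 16 alternatives no called gene of the 50 changed sign. The calls of Clk1, Clk2, Sf3b1 and Srsf12 held in all 16, and 11 of the 21 calls held in all alternatives other than spike-in scaling. Among the 29 uncalled genes 10 gained a call in at least 1 alternative, and 12 changed sign while staying uncalled. Leaving out each library in turn gave 6 to 8 higher and 9 to 17 lower genes of the set, and 5203 to 7033 called genes in all. Spike-in scaling gave 0 lower genes of the set and 4448 called genes in all, and upper-quartile scaling gave 9 higher and 9 lower genes of the set. Without a filter on low counts 3571 of all 33209 tested genes were lower, among them 20 genes of the set. Where KO replicate 2 stood alone for its group 5 were higher, and 2752 genes were called in all. The lone KO library is there assumed to vary like the WT group. With the Y-linked covariate 3478 genes were called in all. The cause of these shifts was not tested. Deviations of same-numbered WT and KO libraries correlated at -0.0242, 0.00599 and 0.0815, and those of the other pairs at -0.057 to 0.0451. With 3 libraries per group these values cannot decide whether the numbers pair the libraries. The replicate block gave 8 higher and 16 lower genes of the set, against 3202 and 2988 of all 16006 tested genes. The log2 change of Prmt5 ran from -1.51 to -1.15 over all alternatives and stayed called. Depth limits Srsf12 and U2af1l4, the genes with the fewest counts.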
